A study of Mus musculus with 7 samples.

Results

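The mitochondrial ribosomal proteins are the nuclear-encoded protein components of the ribosome inside mitochondria. Their genes were taken as the protein-coding rows of the deposited count table whose symbol begins with Mrpl or Mrps and a digit, which gave 78 genes of 55487 in all. The rule reads symbols and gene types and no measured value, and all 78 passed the filter on low counts. RNA came from brown adipose tissue, a fat depot whose mitochondria produce heat, and the animals were NOD/ShiLtJ mice, an inbred strain prone to autoimmune diabetes. The CB-100 group (4 mice) was injected under the skin for 7 days with 1.5 mg per kg body weight of CB-100, the material above 100 kDa in buffer that brown adipocytes had conditioned. The sham group (3 mice) received KRBH buffer, and its labels carry the CB-100 protocol text with no schedule of their own. Mice had blood glucose of 190 to 230 mg/dL, and tissue was collected 2 to 8 weeks after injection, with neither the week nor the age of a mouse stated. CB-100 titles also carry the code nd and sham titles the code d, which the labels leave unexplained, so that whatever it marks cannot be told apart from the injection. By its title the study asks what large proteins released by brown adipocytes do in brown fat when mice are diabetic.

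Mitochondria keep a small genome that encodes a few core subunits of the respiratory chain together with the ribosomal and transfer RNAs to translate them. All proteins of the ribosome that reads these messages are made in the cytosol from nuclear genes and imported. The particle has a small subunit, where messages are decoded, and a large subunit, where peptide bonds form and from which the new protein passes straight into the inner membrane. Many of its proteins are homologues of those in the bacterial ribosome it descends from, and others are found only in mitochondria. Brown fat is dense in mitochondria, and its heat production rests on the respiratory chain that this ribosome helps to build.

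Promoter sequences are shown for the 6 genes that passed the test for a difference between the groups, so that their motifs can be compared, and for the promoter region that 2 members share. The family is spread over 17 chromosomes. Mrpl39, Mrpl22 and Mrps11 were added to this set after their values were seen. Each window runs 250 bases before to 50 bases after the start of the gene in RefSeq on GRCm38.p6, written 5′ to 3′ on the strand of the gene. Capitals mark the motifs of NRF1 (GCGCNTGCG), of the ETS family including GABPA (CCGGAAGT), of YY1 (AAGATGGCG) and the GC box (GGGCGG), searched on both strands. NRF1, GABPA and YY1 are factors known to act at many nuclear genes for mitochondrial proteins.

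Mrpl41, chr2:24975049-24975348, minus strand: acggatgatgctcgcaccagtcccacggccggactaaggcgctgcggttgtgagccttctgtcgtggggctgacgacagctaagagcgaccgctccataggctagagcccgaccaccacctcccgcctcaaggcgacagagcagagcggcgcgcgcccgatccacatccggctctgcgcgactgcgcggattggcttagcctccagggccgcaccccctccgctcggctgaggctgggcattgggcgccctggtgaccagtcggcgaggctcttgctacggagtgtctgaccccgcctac

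Mrps31, chr8:22411090-22411389, plus strand: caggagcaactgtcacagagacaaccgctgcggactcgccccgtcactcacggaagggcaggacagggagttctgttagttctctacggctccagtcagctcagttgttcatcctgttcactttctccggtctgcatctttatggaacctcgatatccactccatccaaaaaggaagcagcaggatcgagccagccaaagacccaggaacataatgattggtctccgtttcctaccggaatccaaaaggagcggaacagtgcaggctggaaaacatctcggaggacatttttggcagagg

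Mrps18b, chr17:35916391-35916690, minus strand: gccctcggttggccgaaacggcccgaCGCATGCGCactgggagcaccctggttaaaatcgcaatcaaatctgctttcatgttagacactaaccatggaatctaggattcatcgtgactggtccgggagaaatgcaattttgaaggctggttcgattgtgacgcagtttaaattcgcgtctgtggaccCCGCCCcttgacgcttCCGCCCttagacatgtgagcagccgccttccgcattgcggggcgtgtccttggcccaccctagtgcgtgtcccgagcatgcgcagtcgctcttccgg

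Mrpl47, chr3:32736706-32737005, minus strand: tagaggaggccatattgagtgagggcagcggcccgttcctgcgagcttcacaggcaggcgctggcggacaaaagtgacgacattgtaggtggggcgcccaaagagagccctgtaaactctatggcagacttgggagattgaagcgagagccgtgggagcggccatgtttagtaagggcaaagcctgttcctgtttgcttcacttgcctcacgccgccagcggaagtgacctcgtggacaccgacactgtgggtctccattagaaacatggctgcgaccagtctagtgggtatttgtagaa

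Mrpl39, chr16:84735195-84735494, minus strand: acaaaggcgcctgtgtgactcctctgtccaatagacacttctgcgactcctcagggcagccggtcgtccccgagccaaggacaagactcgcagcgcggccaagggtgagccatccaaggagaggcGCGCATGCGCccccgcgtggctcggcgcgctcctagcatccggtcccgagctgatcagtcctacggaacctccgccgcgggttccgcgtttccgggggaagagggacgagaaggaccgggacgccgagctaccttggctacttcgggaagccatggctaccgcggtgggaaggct

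Mrpl22, chr11:58171414-58171713, plus strand: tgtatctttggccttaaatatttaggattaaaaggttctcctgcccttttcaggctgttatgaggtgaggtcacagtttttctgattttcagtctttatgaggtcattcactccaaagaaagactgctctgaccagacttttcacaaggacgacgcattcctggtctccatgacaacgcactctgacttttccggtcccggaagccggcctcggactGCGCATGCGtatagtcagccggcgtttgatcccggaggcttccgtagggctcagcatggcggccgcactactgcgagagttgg

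Mrps11 and Mrpl46, chr7:78782881-78783180, plus strand of Mrps11: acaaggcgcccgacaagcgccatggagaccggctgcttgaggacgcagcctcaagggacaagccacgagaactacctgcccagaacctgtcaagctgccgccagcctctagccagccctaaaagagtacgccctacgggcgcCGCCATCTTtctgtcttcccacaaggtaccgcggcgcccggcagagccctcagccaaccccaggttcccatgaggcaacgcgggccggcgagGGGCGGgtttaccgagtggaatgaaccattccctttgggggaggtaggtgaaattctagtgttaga

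The NRF1 motif stands in the windows of Mrps18b, Mrpl39 and Mrpl22, at positions -224, -125 and -33 from the start, and in none of the other 3 called genes. In Mrpl39 it reads on both strands, 1 base apart. The GC box occurs at 2 places in Mrps18b. The windows of Mrpl41, Mrps31 and Mrpl47 hold none of these 4 motifs in the letters searched. For Mrpl47 and Mrpl39 the outermost GENCODE start lies further upstream than the RefSeq start used here. Mrps11 and Mrpl46 are transcribed away from each other from starts 42 bases apart, and their windows overlap by 141 bases. The window of Mrps11 holds a YY1 motif and a GC box. The window of Mrpl46 also has a GC box but no YY1 motif, so the YY1 match is not in the shared bases.

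Over the family, 69 of 78 genes had a window in the table, and the last 20 bases of 67 of these windows were found in a GENCODE transcript of the same gene on the same strand. The NRF1 motif was in 18 of the 69 (26.1%), against 8.95% of 17492 protein-coding genes with such a window. The ETS motif was in 11 (15.9%), against 5.29% of protein-coding genes. The YY1 motif was in 8 (11.6%), against 1.94%. At least 1 of these 3 motifs was in 34 of 69 windows (49.3%), against 14.9%. The GC box was about as frequent in the family (49.3%) as elsewhere (46.3%), as was the E-box CACGTG (7.25% against 7.90%), while the TATA box TATAAA was in 5.80% against 13.3%. The motif of the estrogen-related receptor ERRA (TCAAGGTCA) was in 0 of 69 windows, and in 0.332% of protein-coding genes. The median log2 change of the members, CB-100 over sham, was -0.46 with an NRF1 motif and -0.39 without one. For the ETS motif these medians were -0.30 with and -0.46 without, and for YY1 -0.26 and -0.44. A match is a run of letters and was not tested as a binding site.

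**Figure D1:**
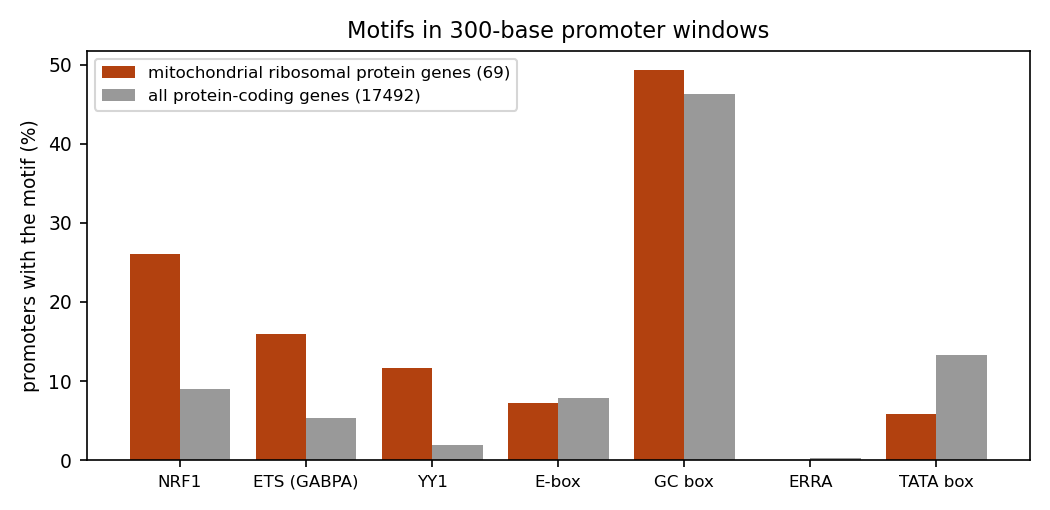
Percentage of 300-base promoter windows (y axis) that hold each motif (x axis), for mitochondrial ribosomal protein genes (69) and for all protein-coding genes (17492). NRF1, ETS and YY1 motifs stand at 26.1%, 15.9% and 11.6% in the family, against 8.95%, 5.29% and 1.94%.

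Library totals ran from 10815101 to 28528471 counts in CB-100 and from 14843173 to 19547048 in sham, and the lowest count of any member in any library was 36. Counts of Xist and Y-linked genes marked 1 library of each group as male, CB-100 replicate 3 and sham replicate 3. The summed skeletal muscle markers stood at 10087 CPM in CB-100 replicate 3 and at 1177 to 2201 CPM in the other CB-100 libraries, against 2598 to 5062 CPM in sham. Mitochondrially encoded genes took 22.3% to 36.3% of counts in CB-100 and 14.3% to 22.8% in sham. The small RNAs 7SL and 7SK took 9.54% to 14.4% in CB-100 and 5.89% to 8.35% in sham, and protein-coding genes 76.2% to 80.0% in CB-100 and 83.0% to 86.5% in sham, each without overlap. The adipocyte gene Ucp1, whose product uncouples respiration to make heat, was at 2237, 449.8, 1098 and 1824 CPM in CB-100 and 139.7, 875 and 46.1 CPM in sham, a log2 change of 1.99 with SE 0.98 (edgeR adjusted p = 0.26). The fatty acid desaturase Scd1 rose in CB-100, with a log2 change of 4.42 and SE 0.70 (edgeR adjusted p = 0.026), and its non-whole counts make it uncertain. The 11 brown adipocyte markers were all tested and none was called, with summed levels of 1717 to 4048 CPM in CB-100 and 1687 to 2626 CPM in sham.

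A few genes of the mitochondrial ribosome fell in CB-100 brown fat, and nearly the whole family had estimates on the lower side. Of the 78 genes, 6 fell and 0 rose at an adjusted p of 0.05 in edgeR's quasi-likelihood test, and 72 did not pass. The called 6 are 7.69% of the family, against 2.28% of 16823 tested genes called lower, 1.42% called higher and 3.70% called in either direction. The log2 change was below 0 for 76 of 78 genes, with a median of -0.45 and an interquartile range of -0.60 to -0.28, while the median over all genes tested was 0.03. In 34 of 78 genes (43.6%) each CB-100 library lay below each sham library, which held for 12.2% of genes tested, and no member showed the opposite separation, which 11.1% of genes tested did. At an unadjusted p under 0.05 there were 36 members, all with log2 changes below 0, beside 4022 of the 16823 genes tested, of which 2046 (12.2% of those tested) had log2 changes below 0.

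The number of called members, like that of all genes called, rests on single libraries. Leaving out CB-100 replicate 1, 2, 3 or 4 gave 2, 0, 3 or 4 called members, and leaving out sham replicate 1, 2 or 3 gave 0, 3 or 0. Calls over all genes, 622 with every library, fell to 97, 24, 187 or 610 without a CB-100 library and to 14, 319 or 8 without a sham library, in the same order. The members' median log2 change was -0.54 to -0.35 over the same 7 omissions, and 71 to 77 of the 78 estimates were below 0. Other tools called more members on the same libraries, 22 lower with DESeq2 and 17 lower with limma voom, and 0 higher with either. They also called more genes lower in all, 1040 with DESeq2 and 728 with limma voom, against 383 with edgeR. DESeq2 was run without the filter on low counts, so its share is 3.27% of 31814 genes. The share for limma voom is 4.33% of the 16823 filtered genes, and the 2 shares are not on the same base.

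**Figure D2:**
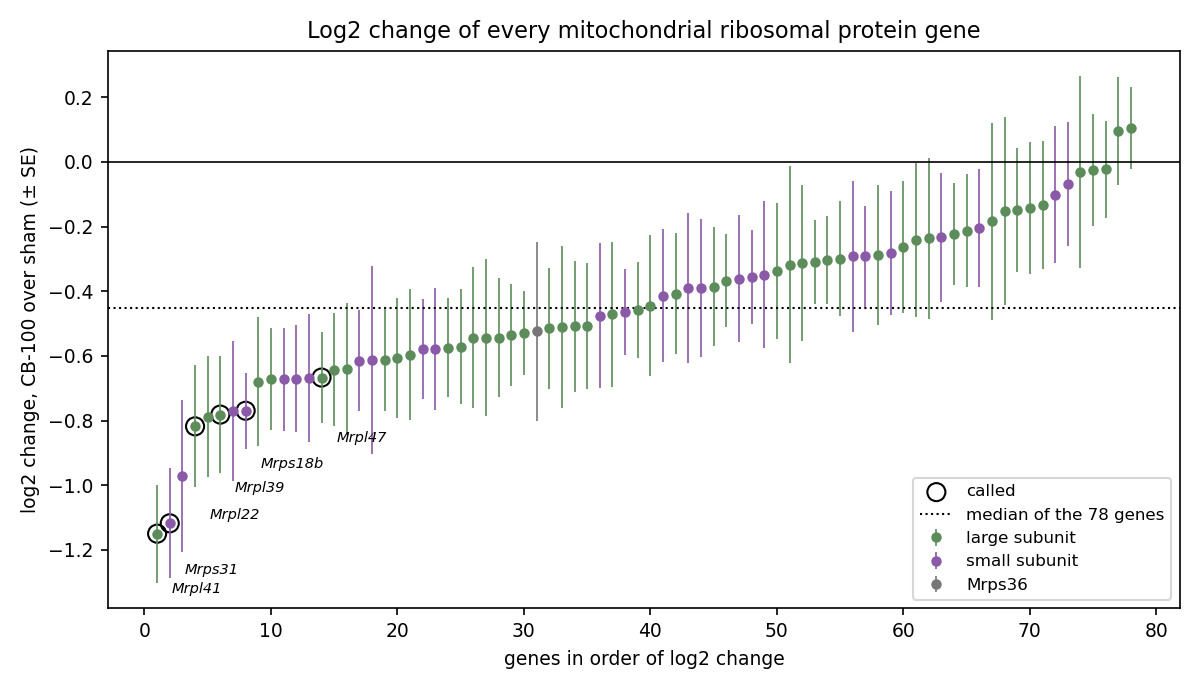
Log2 change, CB-100 over sham, with its standard error (y axis) for each of the 78 genes in ascending order (x axis), coloured by ribosomal subunit, with called genes ringed and the median dotted. Estimates run from -1.15 for Mrpl41 to 0.11 for Mrpl37, and 76 of 78 lie below 0.

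Among the 6 called genes Mrpl41, a large-subunit protein with no bacterial counterpart, showed the largest change. It stood at 10.9, 8.58, 10.4 and 10.8 CPM in CB-100 replicates 1 to 4 and at 21.3, 20.96 and 25.4 CPM in sham replicates 1 to 3. Every CB-100 value was thus near or under 11 CPM and every sham value near or above 21 CPM. The level was 2.22-fold lower in CB-100 (log2 change -1.15, SE 0.15, edgeR adjusted p = 0.0204). Mrpl41 occupies chromosome 2, 24974117 to 24975098 of GRCm38 (minus strand), has whole counts and overlaps no other gene model.

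Mrps31, a small-subunit protein that is also without a bacterial counterpart, was at 13.6, 9.50, 11.002 and 11.02 CPM in CB-100 and 21.2, 23.9 and 28.3 CPM in sham. Its highest CB-100 library, replicate 1, stayed well below its lowest sham library, also replicate 1. The log2 change was -1.12 (SE 0.17, edgeR adjusted p = 0.0222), a 2.17-fold lower level. Mrps31 occupies chromosome 8, 22411361 to 22429665 (plus strand), and neither non-whole counts nor an overlapping gene touch it.

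Mrps18b, a small-subunit homologue of bacterial protein S18, was the most even of the 6 between replicates, with a CB-100 mean of 22.97 ± 1.18 CPM (SD, n = 4), against a sham mean of 39.2 ± 1.81 CPM (SD, n = 3). Single libraries were at 23.8, 22.2, 24.1 and 21.8 CPM in CB-100 and at 37.1, 40.5 and 39.9 CPM in sham. Its log2 change was -0.77 (SE 0.12, edgeR adjusted p = 0.0222). It occupies chromosome 17, 35910379 to 35916389 (minus strand). Its counts were non-whole in all 7 libraries and a gene model on the opposite strand overlaps it, so its count is uncertain.

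Mrpl22 and Mrpl47, homologues of bacterial proteins at the tunnel through which the new chain leaves the ribosome, were both called. Mrpl22 stood at 4.44, 4.13, 3.85 and 4.72 CPM in CB-100 and at 6.66, 8.28 and 7.81 CPM in sham, a log2 change of -0.82 with SE 0.19 (edgeR adjusted p = 0.04997). Mrpl47 stood at 15.2, 11.9, 12.5 and 13.1 CPM in CB-100 and at 20.9, 19.8 and 22.1 CPM in sham, a log2 change of -0.67 with SE 0.14 (edgeR adjusted p = 0.0409). In neither gene did the groups overlap, and CB-100 replicate 1 was the highest CB-100 library for Mrpl47. Mrpl22 occupies chromosome 11, 58171661 to 58179565 (plus strand), and Mrpl47 chromosome 3, 32725397 to 32737605 (minus strand). Both have non-whole counts in 7 libraries, and Mrpl47 also overlaps Actl6a and Ndufb5, so both are uncertain.

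Mrpl39, a large-subunit protein particular to mitochondria, had 21.96, 16.99, 26.6 and 18.9 CPM in CB-100 and 30.7, 38.6 and 39.6 CPM in sham, with the highest CB-100 value in replicate 3 and the lowest sham value in replicate 1. It occupies chromosome 16, 84717576 to 84735742 (minus strand). Its log2 change was -0.78 (SE 0.18, edgeR adjusted p = 0.04974). Mrpl39 and Mrpl22 sit just inside the threshold, and Mrpl38 (log2 change -0.67, edgeR adjusted p = 0.0511), Mrpl45 (-0.79, edgeR adjusted p = 0.0529) and Mrps14 (-0.67, edgeR adjusted p = 0.0529) just outside. The call for Mrpl22, for Mrpl39 and for Mrpl47 was lost under each of the 7 single-library omissions. Upper quartile scaling also ended the calls of Mrpl22 and Mrpl39 (edgeR adjusted p = 0.0546 and 0.0524), and testing without a filter that of Mrpl22 (edgeR adjusted p = 0.0619). That of Mrps18b was lost in 4 of them, and those of Mrpl41 and Mrps31 in 3, without CB-100 replicate 2, sham replicate 1 or sham replicate 3. The log2 change of Mrpl41 was -1.20 to -1.06 over these omissions, and that of Mrps31 -1.22 to -1.01.

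**Figure D3:**
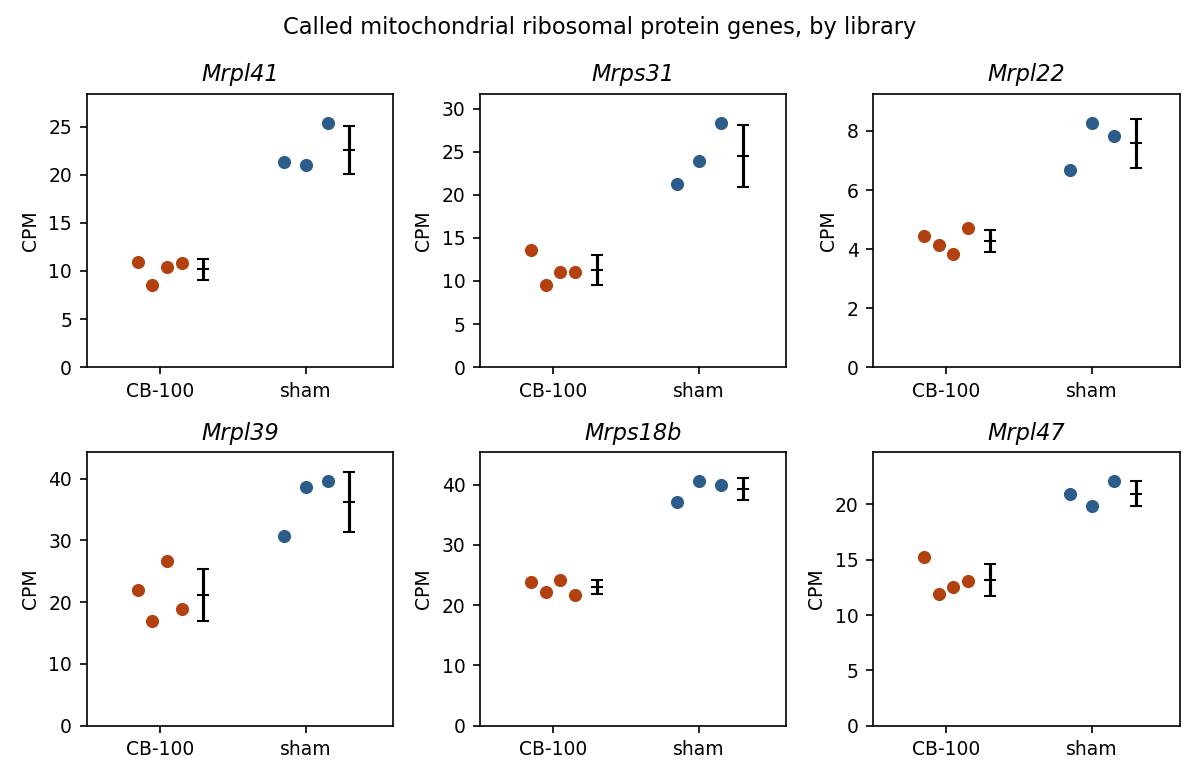
CPM (y axis, from 0) of the 6 called genes in each CB-100 library (left) and each sham library (right), with the mean and SD as bars. In each of the 6 genes all 4 CB-100 points lie below all 3 sham points.

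Calls came from both subunits. Of 51 large-subunit genes 4 fell, with a median log2 change of -0.44, and of 26 small-subunit genes 2 fell, also with a median of -0.44. The 46 homologues of bacterial proteins had 3 calls and a median of -0.45, and the 31 proteins particular to mitochondria had 3 calls and a median of -0.39. Of the S18 family, Mrps18a was counted with the 31, and Mrps18b and Mrps18c with the 46. The number of calls on each side thus depends on where Mrps18b is placed. Mrps30 and Mrps18a, named for the small subunit, are counted with the large one, where structures of the mammalian particle place them. The gene left over, Mrps36, encodes a protein now assigned to the alpha-ketoglutarate dehydrogenase complex and not to the ribosome. It had a log2 change of -0.52 (edgeR adjusted p = 0.28).

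The protein family S18 has 3 mitochondrial versions, each in a different position of the particle, and they differed in their estimates. Mrps18c, in the small subunit, had the third lowest change of the family but did not pass, at 4.01, 3.29, 4.53 and 5.95 CPM in CB-100 and 7.97, 8.31 and 10.1 CPM in sham, a log2 change of -0.97 with SE 0.24 (edgeR adjusted p = 0.0547). Mrps18b, the called one, is given above. Mrps18a, in the large subunit, was at 48.8, 24.6, 39.8 and 24.7 CPM in CB-100 and 32.7, 30.3 and 51.6 CPM in sham, and the ranges of the groups overlapped (log2 change -0.15, SE 0.29, edgeR adjusted p = 0.79). The difference in change between the 3 genes was not tested.

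The genes around the site where the new protein leaves the ribosome were looked at together, a grouping chosen after their values were seen. It holds Mrpl17, Mrpl22, Mrpl23, Mrpl24, Mrpl45 and Mrpl47, of which 2 fell. The median log2 change was -0.52, beside -0.45 and 6 calls of 78 in the whole family. Mrpl17 (-0.31), Mrpl23 (-0.31) and Mrpl24 (-0.37) were not called, had uncertain counts and lay above the family median. Mrpl45, which anchors the particle to the inner membrane, was at 27.5, 21.9, 22.5 and 16.7 CPM in CB-100 and 33.6, 35.9 and 45.1 CPM in sham, without overlap. Oxa1l, the insertase that receives the nascent chain there, was at 57.8, 45.3, 59.5 and 41.8 CPM in CB-100 and 74.7, 83.9 and 90.02 CPM in sham, a log2 change of -0.70 with SE 0.16 (edgeR adjusted p = 0.0511, uncertain for non-whole counts and the opposite gene Slc7a7). Elsewhere in the large subunit, the stalk proteins gave smaller estimates. Mrpl12, which also binds the mitochondrial RNA polymerase, had a log2 change of -0.22 and its anchor Mrpl10 one of -0.13, neither called, and the estimate for Mrpl10 was 0.01 without sham replicate 3.

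The highest estimates of the family were close to 0. Mrpl37, particular to mitochondria, was at 43.3, 34.4, 38.8 and 36.4 CPM in CB-100 and 34.6, 36.96 and 35.02 CPM in sham, a log2 change of 0.11 with SE 0.13 (edgeR adjusted p = 0.65). Mrpl50 had a log2 change of 0.10 (SE 0.17), Mrpl33 one of -0.02 and Mrpl48 one of -0.02. The groups overlapped in each of these 4 genes, and 3 of the 4 signs turn under some setting, since Mrpl33 and Mrpl48 are above 0 with upper quartile scaling and Mrpl50 is below 0 without sham replicate 1.

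Per kilobase of exon, the family's mean levels spanned from 1.15 to 68.9 RPKM, with a median of 9.09 RPKM. Mrpl34, a short protein of bacterial type, led with 68.9 RPKM over all 7 libraries, followed by the stalk proteins Mrpl12 at 47.3 RPKM and Mrpl10 at 34.4 RPKM, Mrps21 at 32.4 RPKM and Mrpl18 at 29.1 RPKM. Among these 5, none was called, with log2 changes of -0.54 for Mrpl34, -0.22 for Mrpl12, -0.13 for Mrpl10, -0.35 for Mrps21 and -0.44 for Mrpl18. Counts of Mrpl12, Mrpl10 and Mrpl18 are uncertain for non-whole counts or an overlapping gene. In CPM Mrpl34 stood at 45.5, 29.4, 35.7 and 29.2 in CB-100 and 39.7, 66.03 and 47.3 in sham, where CB-100 replicate 1 was above sham replicate 1. RPKM here divide by the union of annotated exons, so a gene model with rarely used exons gives a lower value.

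Library by library, the groups stood close to each other at one end. The median deviation of the members from their own means was 0.03, -0.40, -0.06 and -0.29 on the log2 scale in CB-100 replicates 1 to 4, against 0.03, 0.35 and 0.36 in sham replicates 1 to 3. CB-100 replicate 1 and sham replicate 1 were thus nearly level (the first just below the second), while CB-100 replicates 2 and 4 were lowest and sham replicates 2 and 3 highest. The lowest library was CB-100 replicate 2 for 46 of the 78 genes and CB-100 replicate 4 for 25. The highest was sham replicate 2 for 38 genes and sham replicate 3 for 34. The summed members took 0.357%, 0.277%, 0.318% and 0.272% of nuclear protein-coding counts in CB-100 replicates 1 to 4, against 0.340%, 0.398% and 0.387% in sham, with overlap. Summed members stood at 2042, 1451, 1808 and 1514 CPM in CB-100 and at 1939, 2450 and 2389 CPM in sham, again with overlap, since CB-100 replicate 1 exceeded sham replicate 1.

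**Figure D4:**
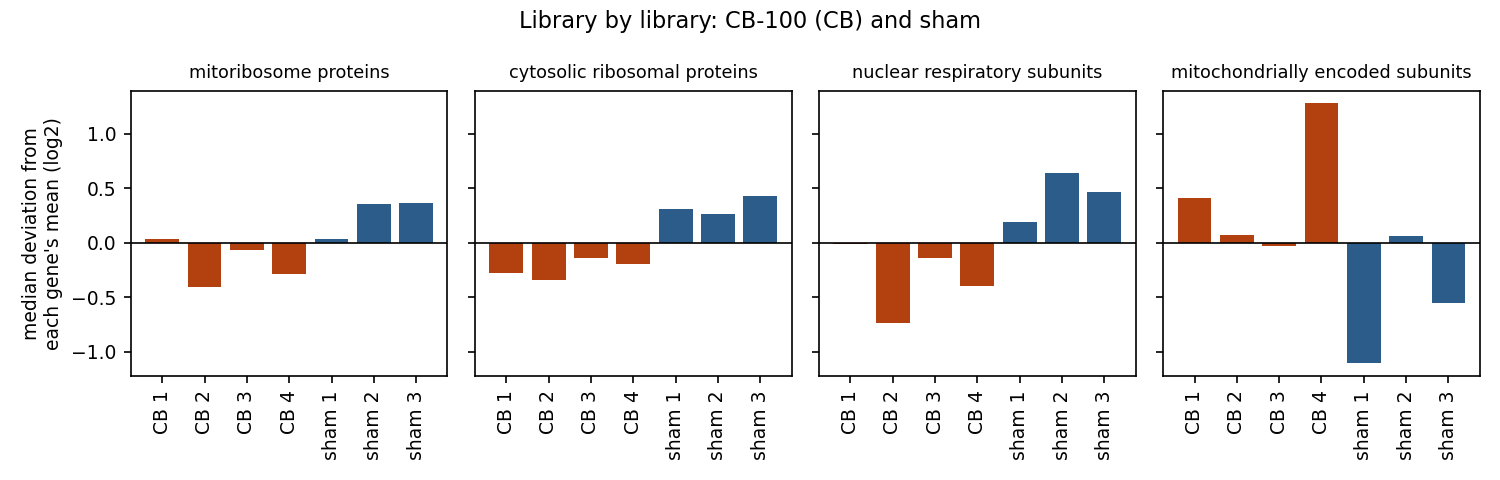
Median deviation of each gene list from its genes' own mean log2 CPM (y axis) in each library (x axis), CB-100 replicates left and sham replicates right. For mitochondrial ribosomal proteins CB-100 replicate 1 and sham replicate 1 both stand at 0.03, while CB-100 replicate 2 stands at -0.40 and sham replicate 3 at 0.36.

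Summed markers of some cell types separated the groups, and those of other cell types overlapped. The adipocyte markers Adipoq, Plin1, Fabp4, Pparg, Lipe and Pnpla2 had summed levels of 5330 to 6636 CPM in CB-100 and 7789 to 10842 CPM in sham, 5 of 6 had estimates below 0 and none was called. Summed fibroblast markers (4 of 4 tested, none called) ran from 715 to 1478 CPM in CB-100 and from 288 to 643 CPM in sham. Within them Col3a1 (log2 change 1.87) and Col1a1 (1.78) were above 0 with each CB-100 library above each sham library, Dcn (-0.74) was below 0 with the opposite separation, and Pdgfra (0.35) overlapped. Endothelial markers (6 of 6 tested) ran from 649 to 1476 CPM in CB-100 and from 542 to 909 CPM in sham, macrophage markers (9 of 9) from 106 to 241 CPM in CB-100 and from 120 to 183 CPM in sham, and lymphocyte markers, with 3 of 9 past the filter, from 3.65 to 6.58 CPM in CB-100 and from 3.67 to 7.70 CPM in sham. With a skeletal muscle score as covariate 0 members were called by edgeR (25 at an unadjusted p under 0.05, beside 2973 of 16823 genes), and their median log2 change was -0.41. With sex as covariate 3 were called, Mrpl41, Mrps18b and Mrps31. In the 5 females alone edgeR called 0 members and 0 genes in all (23 members and 2578 genes at an unadjusted p under 0.05), and the members' median was -0.42. In bulk tissue fewer cells of a type and less RNA per cell cannot be told apart, and the part of cell mixture and of RNA composition in the family's change was not tested.

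Gene length moved with the log2 change over the whole table. Protein-coding genes with up to 1000 bases of exon had a median of -0.32, those up to 2000 bases -0.13, those up to 4000 bases -0.02 and longer ones 0.06. Mitochondrial ribosomal protein genes are short, with a median exon length of 2394 bases against 4539 bases for tested protein-coding genes. Within the same 4 length ranges their medians were -0.54 (9 genes), -0.43 (22 genes), -0.51 (25 genes) and -0.43 (22 genes), each below that of the range. The shares called lower were 22.2%, 0%, 12.0% and 4.55%, against 7.22%, 5.08%, 3.48% and 1.27% of protein-coding genes. Each CB-100 library lay below each sham library in 22.2%, 31.8%, 48.0% and 59.1%, against 27.8%, 19.7%, 14.7% and 10.7%. The family thus did not exceed its range in every measure. After exon length and GC content were corrected for within each library, 4 members were called lower, Mrpl38, Mrpl41, Mrps18b and Mrps31, and the members' median was -0.39. In that fit 290 of 16823 genes tested (1.72%) were called lower, and the median over all genes tested was 0.003. Non-whole counts or an overlapping gene made 49 of the 78 counts uncertain. The 29 others had 3 calls and a median of -0.47, against 3 calls and -0.39 in the 49.

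Further proteins of the same ribosome have names outside the Mrp series. The 5 measured were Dap3, a GTP-binding small-subunit protein, Ptcd3, an RNA-binding small-subunit protein, Chchd1, Aurkaip1 and the large-subunit protein Gadd45gip1. None passed, all 5 estimates were below 0, and their median was -0.39. Counts of Chchd1 and Gfm1, like those of the members Mrps18a, Mrps18c, Mrps36, Mrpl33, Mrpl45 and Mrpl48, are uncertain for non-whole counts or an overlapping gene. Chchd1 had the smallest p, at 12.7, 8.04, 8.49 and 12.3 CPM in CB-100 and 14.7, 18.5 and 19.7 CPM in sham, without overlap (log2 change -0.76, SE 0.21, edgeR adjusted p = 0.0752).

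Of 27 factors that assemble the mitochondrial ribosome 2 fell, 0 rose and 25 did not pass, with a median log2 change of -0.24. Mterf4, which works with the methyltransferase Nsun4 in building the large subunit, was at 17.1, 9.46, 13.1 and 8.85 CPM in CB-100 and 26.6, 23.2 and 37.2 CPM in sham. It fell, with a log2 change of -1.26 and SE 0.26 (edgeR adjusted p = 0.0382). Ddx28, an RNA helicase of large-subunit assembly, was at 5.58, 5.21, 6.11 and 5.12 CPM in CB-100 and 9.94, 9.82 and 10.7 CPM in sham, and also fell, with a log2 change of -0.88 and SE 0.17 (edgeR adjusted p = 0.0344). Both counts are uncertain, since Sned1 lies opposite Mterf4 and Dus2 opposite Ddx28.

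Translation factors and synthetases showed few calls. Of 11 tested mitochondrial translation factors none passed and 9 estimates were below 0, with a median of -0.24, and the elongation factor Gfm1 came nearest (log2 change -0.59, edgeR adjusted p = 0.0652). Of 17 mitochondrial aminoacyl-tRNA synthetases 1 rose, Cars2, which charges the cysteine tRNA, at 21.4, 22.2, 17.3 and 25.1 CPM in CB-100 and 8.99, 11.7 and 10.5 CPM in sham, a log2 change of 1.05 with SE 0.17 (edgeR adjusted p = 0.0268, uncertain for the opposite gene Naxd and non-whole counts). The median of the 17 was -0.18. None of 10 genes of mitochondrial messenger handling and membrane insertion passed (median -0.32, all 10 below 0), nor of 10 genes that transcribe and copy mitochondrial DNA (median -0.20), led by the helicase Twnk (log2 change -0.45, edgeR adjusted p = 0.0901), which overlaps the member Mrpl43. Nuclear regulators, among them Nrf1, Gabpa and Yy1, had a median of 0.01 over 10 genes and no call. The CB-100 mean of Nrf1 was 18.4 ± 2.39 CPM (SD, n = 4), against a sham mean of 16.9 ± 1.58 CPM (SD, n = 3), and Gabpb2 had the smallest p (log2 change 0.38, edgeR adjusted p = 0.11).

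The 2 rRNAs of the same ribosome had estimates above 0. The small-subunit rRNA mt-Rnr1 was at 716, 1087, 1940 and 1976 CPM in CB-100 and 467, 1148 and 281 CPM in sham, with overlap, a log2 change of 1.18 with SE 0.54 (edgeR adjusted p = 0.23). The large-subunit rRNA mt-Rnr2 was at 549.97, 964, 1796 and 1571 CPM in CB-100 and 578, 1030 and 227 CPM in sham, a log2 change of 1.00 with SE 0.55 (edgeR adjusted p = 0.31). Neither passed, and the spread within each group was wide. Summed rRNA over summed members was 0.620, 1.41, 2.07 and 2.34 in CB-100 replicates 1 to 4 and 0.539, 0.889 and 0.213 in sham. How rRNA was removed or RNA selected in library preparation is not given in the sources used here, and it bears on rRNA levels. The 13 messages that this ribosome translates had a median log2 change of 0.95 with no call and 12 estimates above 0, led by mt-Nd3 (log2 change 1.78, edgeR adjusted p = 0.13, uncertain for non-whole counts).

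Genes fell among the nuclear partners of those 13 products and among proteins of the cytosolic ribosome. Of 82 tested nuclear subunits of the respiratory complexes 15 fell and 0 rose, with a median log2 change of -0.72, including Ndufa4 (log2 change -1.38), Ndufc2 (-1.38, overlapped by a gene model and uncertain) and Sdhb (-1.15). Of 84 tested genes with cytosolic ribosomal protein symbols 28 fell and 0 rose, with a median of -0.56, including Rpl8 (log2 change -1.01) and Rpl36 (-0.98). Among the called cytosolic genes only Rpl8 has whole counts and no overlapping gene, so the other calls, that of Rpl36 included, are uncertain. The list was taken by symbol and also holds Rps19bp1, named as a binding protein of Rps19 (log2 change -0.29, not called). As shares, 33.3% of cytosolic and 18.3% of respiratory genes were called lower, against 7.69% of mitochondrial ribosomal protein genes. In the cytosolic list the groups separated library by library, at -0.28, -0.35, -0.14 and -0.20 in CB-100 replicates 1 to 4 and at 0.31, 0.26 and 0.43 in sham. The respiratory list stood at -0.01, -0.74, -0.14 and -0.40 in CB-100 and at 0.19, 0.64 and 0.47 in sham. The difference in change between the lists was not tested.

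**Figure D5:**
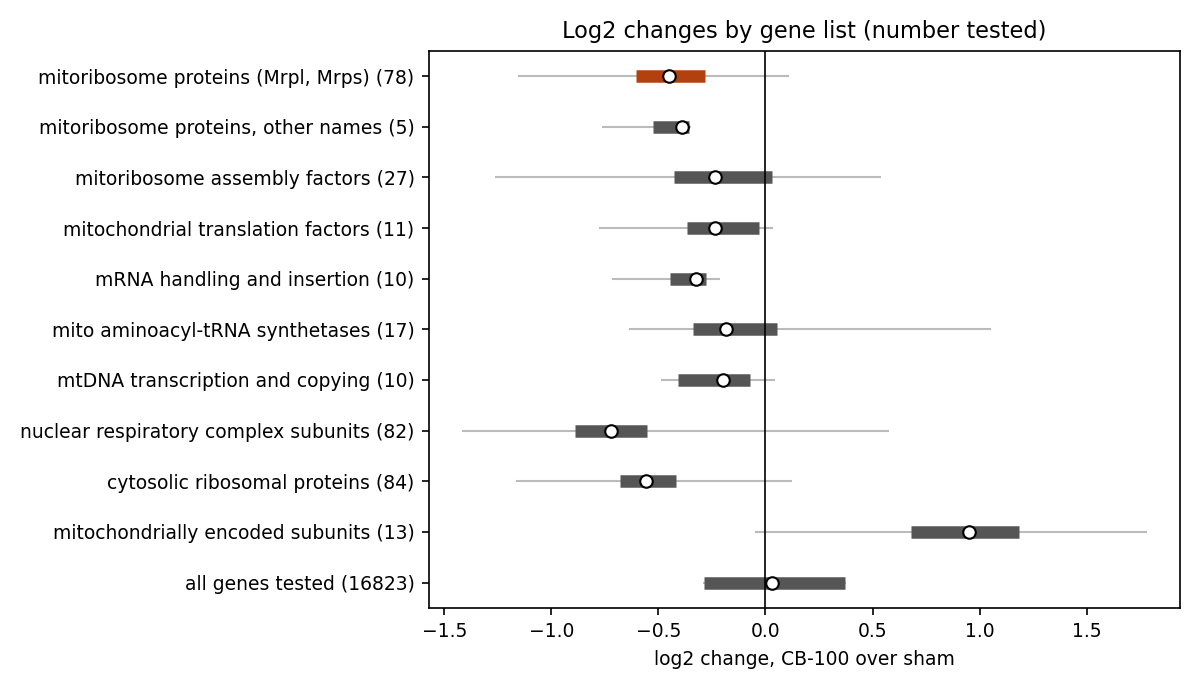
Log2 change, CB-100 over sham (x axis), by gene list (y axis, with the number tested), with the median as a circle, the interquartile range as a thick bar and the whole range as a thin line, except for all genes tested, where the thick bar alone is drawn. The family's median of -0.45 lies between 0.03 for all genes and -0.72 for nuclear respiratory subunits, with mitochondrially encoded subunits at 0.95.

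Many of the genes start back to back with another gene. For 18 of 78 (23.1%) a protein-coding gene on the opposite strand starts within 1000 bases upstream in GENCODE release M21, against 6.77% of protein-coding genes. Of the 18 partners 16 were tested, of which 1 fell, 0 rose and 7 had estimates below 0, with a median log2 change of 0.04, while the 18 members beside them had a median of -0.36. The partner that fell was Psma2, a proteasome subunit 75 bases from Mrpl32 (log2 change -0.95, edgeR adjusted p = 0.042), whereas Mrpl32 itself was not called (log2 change -0.41). Mrps18c lies 29 bases from the helicase gene Helq, whose log2 change was 0.34 against -0.97 for Mrps18c. Some pairs join mitochondrial genes, such as Mrps12 with the synthetase Sars2 (log2 change -0.41 for Mrps12 and 0.05 for Sars2) and Mrps27 with Ptcd2 (-0.23 for Mrps27 and -0.31 for Ptcd2), with no call among the 4. The pair that shares the promoter printed above showed -0.39 for Mrps11 and -0.51 for Mrpl46 (edgeR adjusted p = 0.33 and 0.14). That pair is not among the 18, because its GENCODE gene models overlap at their starts and such pairs were not counted. The overlap also makes the counts of Mrps11 and Mrpl46 uncertain.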

How the data were processed

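RNA was sequenced from brown fat of 4 CB-100 and 3 sham mice. STAR 2.7.9a aligned the reads to Ensembl release 101, per the labels' protocols. Other tools in the submitters' processing notes are featureCounts 2.0.3, Salmon 1.5.2, edgeR and limma. No source used here gives the library kit or its strandedness. The authors deposited expected counts per gene, not normalized. Of 55774 lines, 287 repeats were removed, and counts were rounded.

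Genes kept by filterByExpr (16823) were TMM-scaled and tested with edgeR 4.0.16 (R 4.3.3), two-sided, BH-adjusted over all of them at 0.05. CPM use TMM-scaled totals. RPKM divide CPM by union exon length from GENCODE M21, which matched all 78 members. SE is the log2 change over the square root of F. The fit was tested on simulated data. Only animal codes in the titles mark the samples as separate mice, so p-values measure no more than their spread, and 7 libraries limit precision. Promoters are from RefSeq. The family and the gene lists were picked for description with earlier results of these data known. Named genes are the called members, the 4 lowest and 4 highest changes, the 5 highest RPKM, and per list up to 3 called genes or the smallest p, plus Ucp1, Scd1 and both rRNAs. A gene that this rule gives is not reported here. Others were chosen after their values were seen. Alternatives were scaling, filters, DESeq2 1.42.0, limma voom 3.58.1, omitted libraries, covariates and a length and GC correction (mgcv 1.9.3).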

Additional observations from a re-analysis of the deposited data

Results flagged for a closer look

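Among 26 quantities examined over the 4 CB-100 libraries, 1 had a library standing apart. The summed skeletal muscle markers were at 10087 CPM in CB-100 replicate 3 and at 1177 to 2201 CPM in the other CB-100 libraries, against 2598 to 5062 CPM in sham, and the gap to the nearest library was 0.885 of the CB-100 range, above the critical value of 0.829. Chance alone marks about 1 in 20 such groups. Without CB-100 replicate 3 the family had 3 called genes and a median log2 change of -0.48. None of the 16 members so examined had a CB-100 library standing apart.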

How the results depend on the processing

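No paired analysis was possible because the groups share no animal codes in the labels. The count of members called higher was 0 under each of 20 alternatives. The members' median log2 change, -0.45, stayed between -0.54 and -0.35. Each shift was under 0.18, the pooled SD between replicates of the members' median log2 CPM, a spread of levels and not of changes. The count of members called lower, 6, was 4 with upper quartile scaling, 11 without a filter, 22 with DESeq2, 17 with limma voom, 24 at a threshold of 0.1, 3 with sex as covariate, and 0 in females alone, with a skeletal muscle score or against a fold change of 1.5 (5 of 78 members and 1336 of 16823 genes at an unadjusted p under 0.05 in that test). Calls over all genes, 622, came to 606 with upper quartile scaling and to 914 without a filter, where 31875 genes were tested. They came to 1826, 1213, 1860, 238, 0, 10 and 9 under DESeq2, limma voom, the threshold of 0.1, sex, females alone, muscle score and fold test. Leaving out each library in turn gave 0 to 4 members and 8 to 610 genes. Leaving out 1 library moved the log2 change of Mrpl48 between -0.14 and 0.097, of Mrpl33 between -0.093 and 0.050, of Mrpl50 between -0.011 and 0.18 and of Mrpl10 between -0.27 and 0.011, so that each changed sign. Mrpl48 was at 0.013 with upper quartile scaling, 0.0087 with limma voom and 0.017 with the muscle score, and Mrpl33 at 0.013 with upper quartile scaling. None of these 4 genes was called, and the cause was not tested. Calls in lists outside the family were not recomputed under these alternatives.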
